A study of Homo sapiens with 4 samples.

Results

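Mesenchymal and contractile cytoskeleton genes are a set of 38 genes, chosen by name, that encode inducers and markers of the mesenchymal state, matrix proteins, actins, actin-binding proteins, non-muscle myosin chains, adhesion anchors and caveolins. Each gene was read from its brightest probe set among those paired with that gene alone, and 36 of the 38 had one, out of 18132 genes represented on the array in this way. TPM3 and FLNA had none and were not analysed here. The study used siRNA against BORIS, which is encoded by CTCFL, a testis-restricted relative of the chromatin insulator CTCF that some tumours switch on. The 4 samples were HCT116 cells with BORIS siRNA, HCT116 cells with control siRNA, Caco-2 cells with BORIS siRNA and Caco-2 cells with control siRNA. Both are established human colorectal cancer lines, each used as it grows in culture with no allele or transgene named, and all cells were transfected for 3 days. Total RNA of each sample was hybridised to 1 Affymetrix PrimeView array, a short-oligonucleotide array read in one colour, so each group held 1 array and the comparison of siRNAs within a line has no replicate check and no test.

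Epithelial cells that move towards a mesenchymal state lose junctional cadherin and gain vimentin, matrix proteins and contractile actin. The transcription factors ZEB1, ZEB2, SNAI1, SNAI2 and TWIST1 repress epithelial genes during this transition. Many genes of the contractile cytoskeleton are driven by serum response factor (SRF) with its coactivators of the MRTF family, which respond to the pool of free actin through a DNA motif called the CArG box. Others are driven by TEAD factors with YAP, which respond to tension at cell adhesions, through the letters CATTCC. Colorectal carcinoma lines are epithelial, and they carry these genes in varying amounts.

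The deposited values were log2 expression values, with array medians between 5.46 and 5.48. The background of an array was set at the 95th percentile of its 359 olfactory receptor probe sets, which lay between 4.82 and 5.18, and genes were taken as expressed in a line where either of its arrays placed them at or above the array median. The 9 epithelial markers were above background on all 4 arrays. Between the lines, 5 of them (EPCAM, KRT8, KRT18, KRT20 and CLDN7) were lower in HCT116 by limma, and KRT19 and CDH1, the epithelial cadherin, were higher. The 9 fibroblast markers were below it on all 4, including COL1A1 and DCN, so the members are not accompanied by defining fibroblast transcripts. Of 7 smooth muscle markers, 4 were above background in each HCT116 sample and 3 in each Caco-2 sample, with a highest value of 5.92, while MYOCD and the members CNN1 and ACTG2 were below it throughout. Of the 5 endothelial and 5 blood markers with a probe set, 2 of each were above background on every array. The blood gene HBB was the brightest, at 6.38 to 6.64, so a value near 6 does not by itself show expression. The lines also differed in the enterocyte gene VIL1, below background in HCT116 and at 9.33 and 9.57 in Caco-2, and in the intestinal factor CDX2, at 6.91 and 7.23 in HCT116 and at 5.19 and 5.77 in Caco-2. APOB, APOA1, FABP1 and SI, textbook genes of differentiated Caco-2 cells, were below background on both Caco-2 arrays, as were CDX1, ALPI and CDH17. Of the 9 intestinal markers, VIL1 and CDX2 were thus the only 2 above background there. CTCFL had 7 probe sets, and the brightest stood at 4.93 and 5.07 in HCT116 and at 5.09 and 5.07 in Caco-2, with BORIS siRNA first and control siRNA second. It was below background on both HCT116 arrays and above it on both Caco-2 arrays, there by at most 0.27, and reached no array median. Silencing of the target could therefore not be seen on these arrays. The 24 probe sets of the poly-A spike-in controls, which are added in a fixed amount to the RNA before labelling, averaged 8.44 with BORIS siRNA and 7.57 with control siRNA in HCT116, and 6.71 and 6.78 in Caco-2. The part of this gap of 0.87 between the HCT116 arrays in the siRNA differences of that line was not tested.

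The start-site sequences of 7 members are shown because they carry the motifs of the SRF and TEAD pathways beside members that stood apart between siRNAs, or, for ACTG2, beside a contractile gene that was below background. They are RefSeq windows of GRCh38.p14 from 250 bases before to 50 bases after an annotated start, printed 5′ to 3′ on the strand of the gene. Capitals mark CATTCC or its reverse complement GGAATG, and the CArG box. The windows are chr14:68977517-68977816 on the minus strand for ACTN1, chr10:73997866-73998165 on the plus strand for VCL, chr22:36387918-36388217 on the minus strand for MYH9, chr17:8630676-8630975 on the minus strand for MYH10, chr15:39580829-39581128 on the plus strand for THBS1, chr19:16067288-16067587 on the plus strand for TPM4 and chr2:73892758-73893057 on the plus strand for ACTG2.
ACTN1: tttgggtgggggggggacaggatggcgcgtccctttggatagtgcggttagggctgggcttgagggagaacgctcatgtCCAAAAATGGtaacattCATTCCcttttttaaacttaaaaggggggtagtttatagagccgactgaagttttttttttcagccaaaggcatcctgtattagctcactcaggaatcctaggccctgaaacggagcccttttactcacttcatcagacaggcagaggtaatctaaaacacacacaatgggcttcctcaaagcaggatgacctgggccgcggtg
VCL: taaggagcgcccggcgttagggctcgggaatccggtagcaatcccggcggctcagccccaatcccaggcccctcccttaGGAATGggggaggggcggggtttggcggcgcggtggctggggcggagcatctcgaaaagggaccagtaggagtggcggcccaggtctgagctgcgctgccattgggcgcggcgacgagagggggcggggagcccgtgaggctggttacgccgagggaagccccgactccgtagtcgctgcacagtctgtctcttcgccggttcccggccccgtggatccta
MYH9: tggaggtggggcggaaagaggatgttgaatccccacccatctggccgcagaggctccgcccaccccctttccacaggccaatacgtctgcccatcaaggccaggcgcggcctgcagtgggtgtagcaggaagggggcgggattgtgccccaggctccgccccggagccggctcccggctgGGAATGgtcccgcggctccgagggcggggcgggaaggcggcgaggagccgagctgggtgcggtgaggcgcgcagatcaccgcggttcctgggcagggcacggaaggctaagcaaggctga
MYH10: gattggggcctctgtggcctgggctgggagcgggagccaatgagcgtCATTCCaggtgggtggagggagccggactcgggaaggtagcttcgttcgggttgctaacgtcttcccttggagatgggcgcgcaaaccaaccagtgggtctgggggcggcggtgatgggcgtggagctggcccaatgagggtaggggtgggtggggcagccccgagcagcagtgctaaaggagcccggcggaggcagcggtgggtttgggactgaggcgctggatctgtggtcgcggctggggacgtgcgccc
THBS1: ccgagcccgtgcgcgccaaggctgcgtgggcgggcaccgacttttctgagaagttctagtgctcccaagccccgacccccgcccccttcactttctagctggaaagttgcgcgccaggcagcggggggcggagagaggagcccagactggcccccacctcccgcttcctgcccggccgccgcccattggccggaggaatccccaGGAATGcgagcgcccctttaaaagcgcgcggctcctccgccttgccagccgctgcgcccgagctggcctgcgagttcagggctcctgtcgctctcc
TPM4: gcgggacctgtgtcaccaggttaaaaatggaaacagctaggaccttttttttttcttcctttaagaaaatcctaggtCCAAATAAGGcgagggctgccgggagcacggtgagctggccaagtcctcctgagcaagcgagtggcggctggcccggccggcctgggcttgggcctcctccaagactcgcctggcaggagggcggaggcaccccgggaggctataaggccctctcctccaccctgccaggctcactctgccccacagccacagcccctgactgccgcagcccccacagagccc
ACTG2: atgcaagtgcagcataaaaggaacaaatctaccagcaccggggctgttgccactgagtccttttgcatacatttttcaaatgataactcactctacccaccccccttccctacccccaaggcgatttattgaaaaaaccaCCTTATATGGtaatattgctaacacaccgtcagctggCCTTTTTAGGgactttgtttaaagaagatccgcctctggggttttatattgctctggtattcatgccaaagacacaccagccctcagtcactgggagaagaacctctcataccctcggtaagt

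In the ACTN1 window a CArG box began at position -171 relative to the start and a CATTCC at -154. VCL, MYH9, MYH10 and THBS1 each held 1 CATTCC on either strand and no CArG box. TPM4 held a CArG box, and ACTG2, the enteric smooth muscle actin, held 2 of them. Both strands were searched in 35116 windows of the same length. A CArG box was present in 1.29% of all windows and in 6 of 58 windows of the members (10.3%), those of ACTG1, ACTG2, ACTN1, CNN2, FLNA and TPM4. CATTCC was present in 14.0% of all windows and in 12 of the 58 (20.7%). The 2 motifs share no letters in these windows, and a match describes the letters only. ACTN1 has 4 windows and TPM4 has 3, and the others are without either motif.

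Of the 7 members lower by 1.5-fold or more with BORIS siRNA in HCT116, described next, 6 had windows, 10 in all, and 5 of these windows held CATTCC, 1 each for ACTN1, VCL, MYH9, MYH10 and THBS1. ACTN4 held neither motif. The 3 members higher by 1.5-fold or more in Caco-2 had 7 windows, of which 0 held CATTCC and 1, that of TPM4, held a CArG box. These windows were set beside the differences after the values were seen, and they are given as a description with no test.

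**Figure D1:**
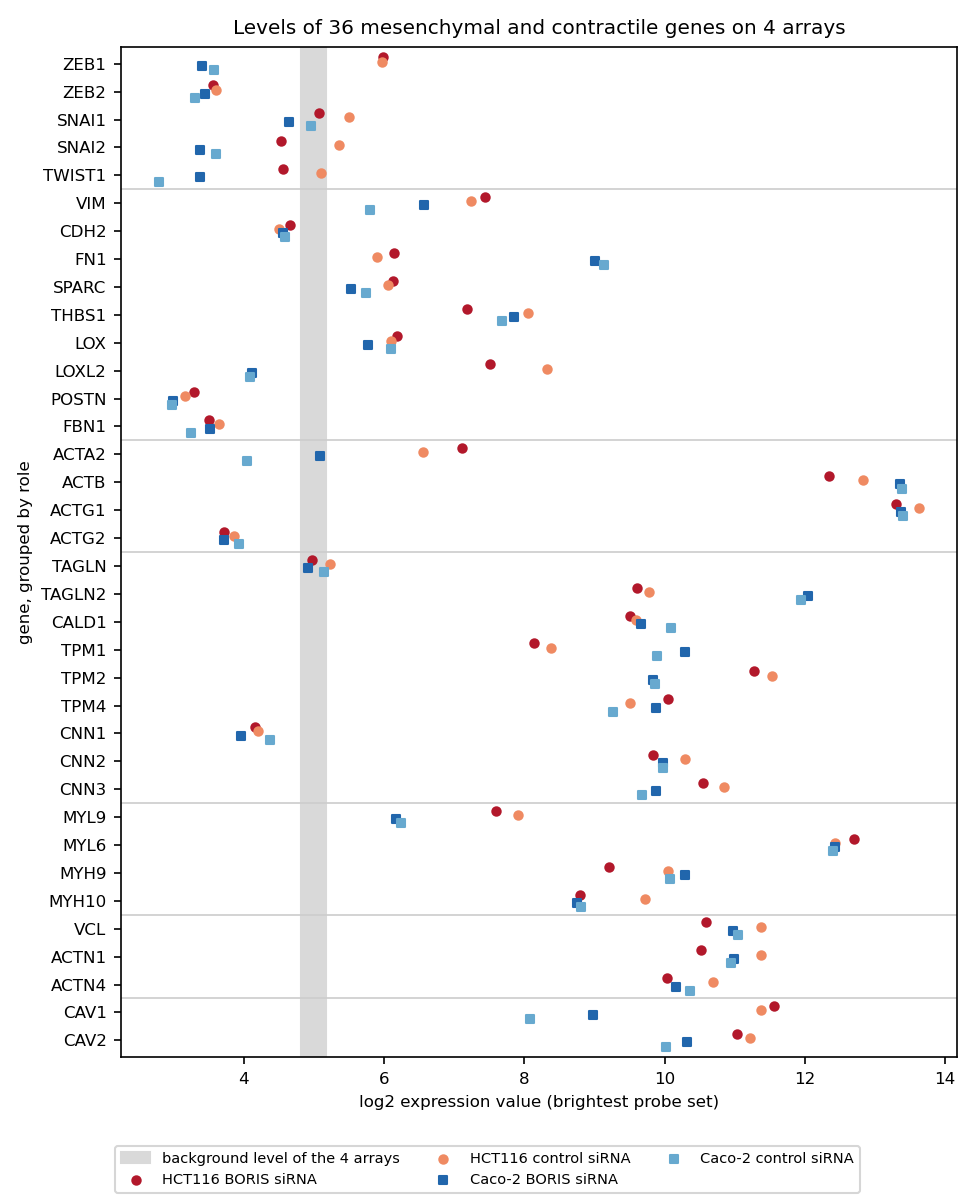
Log2 expression value of the brightest probe set (horizontal axis) for each of 36 genes (rows, grouped by role) on the 4 arrays, 1 point per array. The grey band spans the background levels of the arrays, 4.82 to 5.18; ZEB2, CDH2, POSTN, FBN1, ACTG2 and CNN1 lie below it on all 4 arrays, and the caveolins, TPM2, MYL9 and LOXL2 lie to the right in HCT116.

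In HCT116, 27 of the 36 genes were expressed, beside 10631 of all 18132 genes, and in Caco-2, 23, beside 10389. Of the transcription factors and the mesenchymal and matrix genes, 8 of 14 were expressed in HCT116 and 5 in Caco-2. The share in HCT116 is near that of all genes, and the share in Caco-2 is below it. ZEB2, CDH2, POSTN, FBN1, ACTG2 and CNN1 were below background on all 4 arrays. SNAI2 and TWIST1 were above it on the HCT116 control array alone, at 5.36 and 5.10, and TAGLN stayed between 4.92 and 5.23. These 9 genes never reached an array median and were not tested. The plot of levels by gene shows that 23 of the 36 were above background on every array.

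The first comparison asked how silencing of BORIS moved these genes in HCT116. Transcripts of all 3 measured members whose proteins anchor or crosslink actin filaments at adhesions were lower by 1.5-fold or more with BORIS siRNA. So were those of THBS1, LOXL2 and the non-muscle myosin heavy chains MYH9 and MYH10. No member reached a 2-fold difference, against 0.583% of all expressed genes that were higher and 1.45% that were lower by that much. At 1.5-fold, a log2 difference of 0.585, 7 of 27 members (25.9%) were lower, against 9.18% of all expressed genes, and 0 of 27 were higher, against 4.36%. In any size, 18 of 27 were lower, against 55.4% of all expressed genes. The median difference of the members was -0.26, and that of all expressed genes was -0.05. Centring the arrays on expressed genes moved the median of all genes to 0.07 and that of the members to -0.14, and then 6 members were lower and 2 higher at 1.5-fold. With quantile normalization 7 were lower and 1 higher.

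The crosslinkers and adhesion anchors gave the most uniform picture. ACTN1, the non-muscle alpha-actinin that bundles actin filaments at adhesions, stood at 10.52 with BORIS siRNA and 11.37 with control siRNA in HCT116, and at 11.00 and 10.95 in Caco-2. The HCT116 array with BORIS siRNA was the lowest of the 4 and the other 3 lay within 0.43 of each other. All 6 of its probe sets that reached the median were lower in HCT116, by 0.46 to 0.87. ACTN4, its closest relative, stood at 10.04 and 10.69 in HCT116 and at 10.16 and 10.37 in Caco-2, with BORIS siRNA before control siRNA, and 5 of 5 probe sets were lower in HCT116. VCL, the vinculin that couples adhesions to actin, stood at 10.59 with BORIS siRNA and 11.37 with control siRNA in HCT116, a difference of -0.78, and at 10.98 and 11.05 in Caco-2. Its second bright probe set differed by -0.93 in HCT116. In Caco-2 the 3 genes differed by -0.07, 0.05 and -0.21 for VCL, ACTN1 and ACTN4.

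Both myosin heavy chains among the members were lower in HCT116 by over 1.5-fold, and neither light chain was. MYH14, a non-muscle heavy chain gene outside the set, was below background in HCT116, at 4.35 with BORIS siRNA and 4.40 with control siRNA. MYH9, the heavy chain of non-muscle myosin IIA, stood at 9.20 with BORIS siRNA and 10.04 with control siRNA in HCT116, and at 10.29 and 10.07 in Caco-2. Its difference was -0.84 in HCT116 and 0.22 in Caco-2, with 3 of 3 bright probe sets lower in the first line and 4 of 4 higher in the second. MYH10, the heavy chain of non-muscle myosin IIB, stood at 8.80 and 9.72 in HCT116 and at 8.76 and 8.81 in Caco-2, BORIS siRNA first. Its difference of -0.93 in HCT116 was the largest in that line over the brightest probe sets, and the HCT116 control array stood apart from the other 3 arrays. The regulatory light chain gene MYL9 differed by -0.32, lower on both of its bright probe sets, and the essential light chain gene MYL6 by 0.27 in HCT116, both under 1.5-fold.

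Among the matrix genes, THBS1 and LOXL2 were lower in HCT116. THBS1, the secreted adhesion glycoprotein thrombospondin-1, stood at 7.18 with BORIS siRNA and 8.05 with control siRNA in HCT116, and at 7.85 and 7.68 in Caco-2. Its difference was -0.87 in HCT116, where 3 of 3 bright probe sets were lower, and 0.17 in Caco-2, where 3 of 3 were higher. LOXL2, an enzyme that crosslinks collagen, stood at 7.51 with BORIS siRNA and 8.32 with control siRNA in HCT116, and was below background in Caco-2 at 4.12 and 4.09. As means over all probe sets, bright and dim, THBS1 differed by -0.44, LOXL2 by -0.35 and VCL by -0.31 in HCT116, and the count of members lower at 1.5-fold was then 4. With probe sets that can bind related transcripts left out, VCL was read from a probe set below background, at 0.23.

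FN1, the fibronectin gene, gave readings in HCT116 that depended on the probe set. Its brightest probe set stood at 6.14 with BORIS siRNA and 5.90 with control siRNA, a difference of 0.24. The other probe set at or above the median in HCT116 stood at 3.63 and 5.71, below background with BORIS siRNA alone, so it was lower by at least 0.53 (measured -2.08). A pair of dimmer probe sets, above background with control siRNA alone, stood at 3.77 and 5.32 and at 3.76 and 5.14. Without probe sets that can bind related transcripts, FN1 was read from the first of these, at a measured -1.55. With its BORIS siRNA value raised to background, it was lower by at least 0.14, and the second of the pair stood at 0.04 in this way. Of the other members, the cytoplasmic actins were lower by less than 1.5-fold, with ACTB at 12.35 and ACTG1 at 13.30 with BORIS siRNA, against 12.83 and 13.62 with control siRNA in HCT116. All 3 ACTB and all 5 ACTG1 probe sets were lower there. All 9 probe sets of CNN2, a calponin of non-muscle cells, were lower in HCT116 by 0.33 to 0.56.

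TPM4 was higher with BORIS siRNA in both lines. It encodes a tropomyosin of non-muscle cells, which lies along actin filaments and governs the access of myosin. Its brightest probe set stood at 10.05 with BORIS siRNA and 9.51 with control siRNA in HCT116, and at 9.88 and 9.26 in Caco-2. The differences were 0.54 and 0.62. All 5 probe sets were higher with BORIS siRNA in both lines, and the 3 dimmer ones more so, by 1.34 or more in HCT116 and, with 1 Caco-2 control value below background, by at least 1.31 in Caco-2. Averaged over its probe sets, TPM4 was higher by 1.09 in HCT116 and 1.19 in Caco-2, the Caco-2 mean with that value as measured. TPM1 and TPM2, the other tropomyosins with a value, differed by -0.24 and -0.26 in HCT116 and by 0.40 and -0.03 in Caco-2. The sign for TPM1 depended on the probe set, one bright probe set standing at 0.74 in HCT116 and -0.29 in Caco-2, and its mean over probe sets in HCT116 was 0.17.

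**Figure D2:**
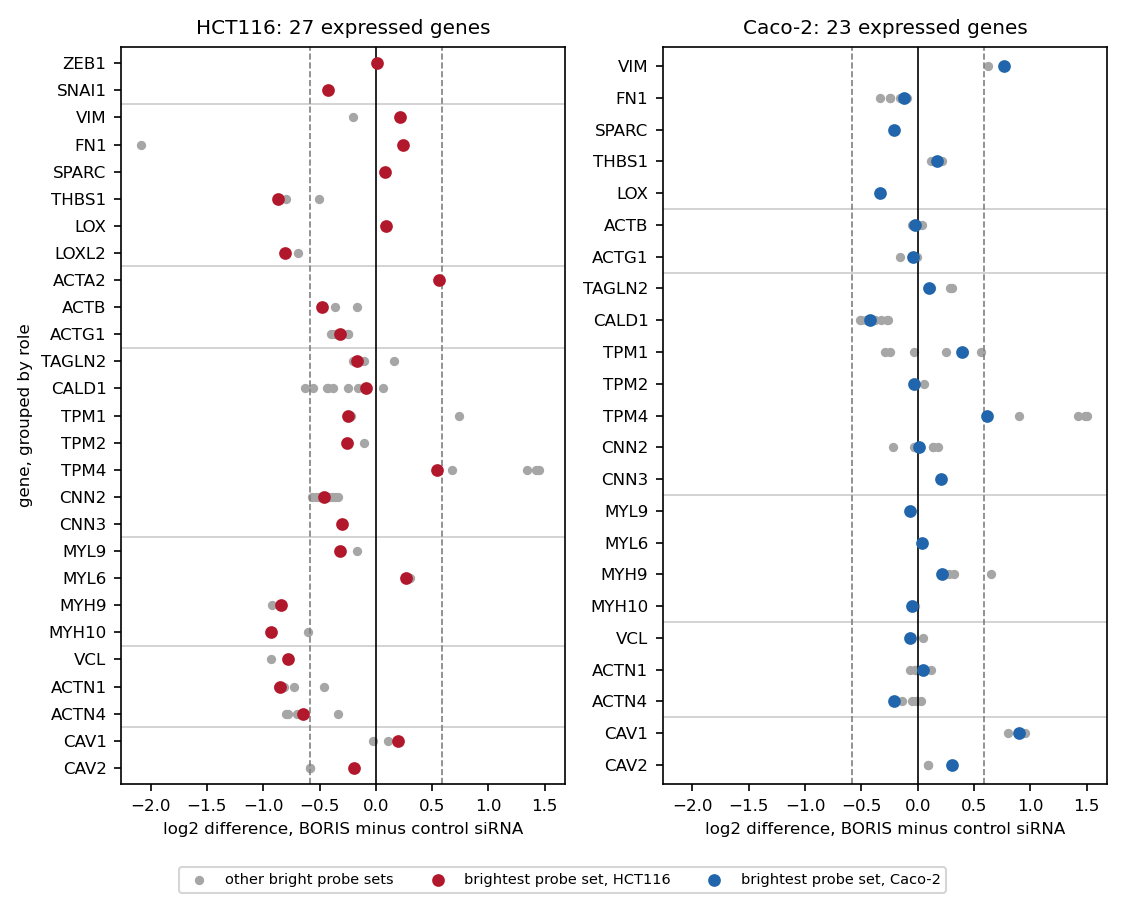
Log2 difference, BORIS siRNA minus control siRNA (horizontal axis), in HCT116 (left, 27 expressed genes) and Caco-2 (right, 23 expressed genes). Coloured points are the brightest probe set, grey points the other probe sets at or above the array median, and dashed lines mark 1.5-fold; VCL, ACTN1, ACTN4, MYH9 and MYH10 lie left of the line in HCT116 and near 0 in Caco-2, except MYH9 at 0.22 and ACTN4 at -0.21.

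**Figure D3:**
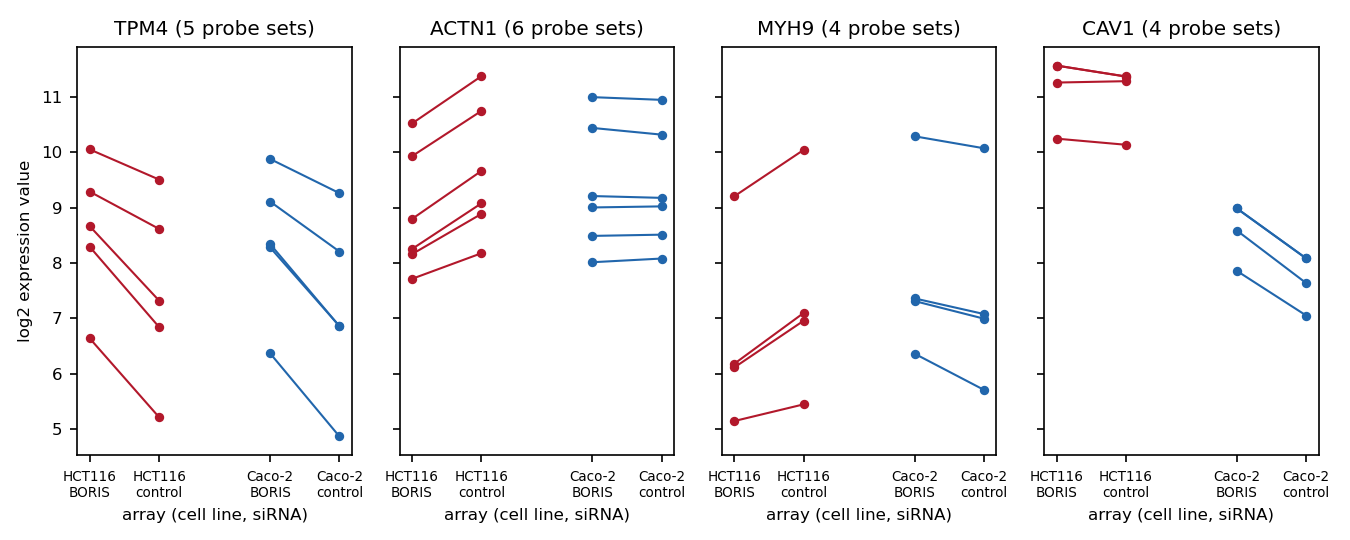
Log2 expression value (vertical axis) of each bright probe set of TPM4, ACTN1, MYH9 and CAV1 on the 4 arrays (horizontal axis), with a line joining the arrays of 1 cell line. TPM4 is higher with BORIS siRNA in both lines, ACTN1 is lower in HCT116 alone, MYH9 is lower in HCT116 and higher in Caco-2, and CAV1 is higher in Caco-2 on all 4 probe sets.

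The same question in Caco-2 gave fewer and different members. No member reached 2-fold, against 0.404% of all expressed genes that were higher and 0.0481% that were lower. At 1.5-fold, 3 of 23 members were higher with BORIS siRNA, against 2.78% of all expressed genes, and 0 were lower, against 1.14%. These were CAV1, VIM and TPM4. In any size, 12 of 23 were higher, against 50.5%, and 11 lower, against 49.4%, and the median difference was 0.01, beside 0.00 for all expressed genes.

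CAV1 encodes caveolin-1, the coat protein of plasma membrane caveolae. It stood at 8.99 with BORIS siRNA and 8.08 with control siRNA in Caco-2, a difference of 0.90, and 4 of 4 probe sets were higher, by 0.81 to 0.95, with a pair of them within 0.01 of each other on every array, so 3 separate readings. In HCT116 it stood at 11.57 and 11.37, and its probe sets differed by -0.02 to 0.20. VIM, the intermediate filament protein vimentin, stood at 6.57 with BORIS siRNA and 5.81 with control siRNA in Caco-2, a difference of 0.76, and both of its probe sets were higher, the second by 0.63. In HCT116 it stood at 7.45 and 7.23, and its 2 probe sets differed by 0.21 and -0.21. CAV2, the partner of CAV1, whose 3 probe sets likewise make 2 separate readings, was higher on all of them in Caco-2, at 10.32 with BORIS siRNA and 10.02 with control siRNA, and lower on all of them in HCT116, at 11.03 and 11.22. ACTA2, the smooth muscle alpha-actin gene, was above background in Caco-2 with BORIS siRNA alone, at 5.09 against 4.05, so its difference there is bounded at 0.03 or more. In HCT116 ACTA2 stood at 7.12 with BORIS siRNA and 6.56 with control siRNA, a difference of 0.56. CALD1, which encodes the actin-binding protein caldesmon, was lower with BORIS siRNA on 10 of 10 probe sets in Caco-2, by 0.26 to 0.51.

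**Figure D4:**
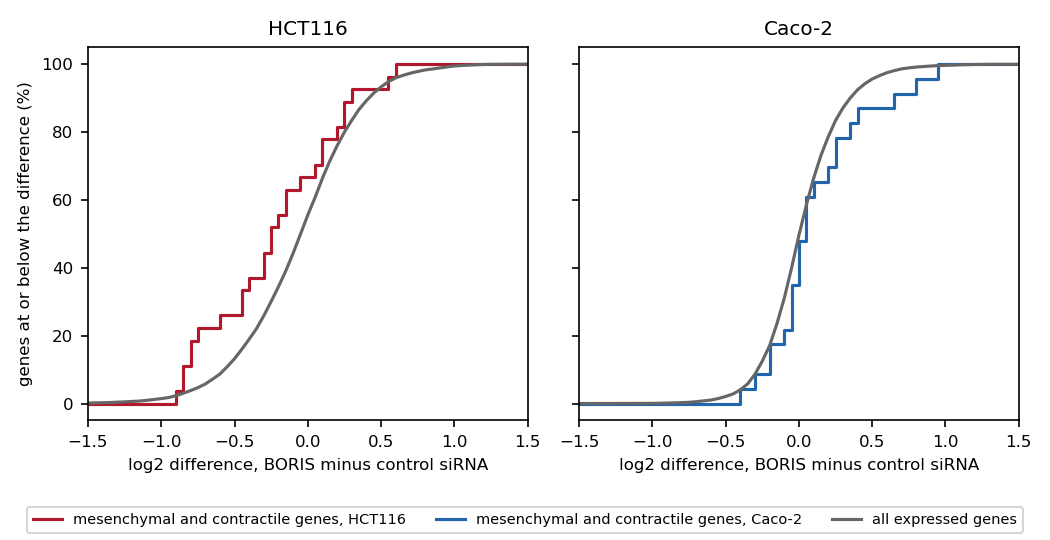
Share of genes at or below a given log2 difference, BORIS siRNA minus control siRNA, for the mesenchymal and contractile genes (coloured) and all expressed genes (grey), in HCT116 (left, 27 genes) and Caco-2 (right, 23 genes). In HCT116 the coloured curve lies above the grey one over most of the lower differences, with medians of -0.26 and -0.05, and in Caco-2 the curves cross near 0, with medians of 0.01 and 0.00.

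Whether BORIS siRNA had one effect common to both lines was tested with limma, using the 4 arrays together and a term for the line. The test called 0 of 11165 genes at a Benjamini-Hochberg adjusted p under 0.05, with 0 of 27 members called and a smallest adjusted p of 0.769. At an unadjusted p under 0.05 there were 670 of the 11165 genes, and 4 of the 27 members, ACTA2, TPM4, ACTN4 and CAV1. With no effect at all, a share near 0.05 of genes would pass this cut. For ACTA2 the fit used a Caco-2 control value below background, and its Caco-2 difference is bounded at 0.03 or more. TPM4 had a shared effect of 0.58 ± 0.16 (SE) with an adjusted p of 0.769 by limma. At 1.5-fold in both lines, 0 of 23 members were higher, against 0.477% of 9855 genes, and 0 lower, against 0.173%. The smallest adjusted p was 0.639 when each of 25243 probe sets was tested as a feature of its own. Whether the siRNA differences of the lines differ from each other could not be tested, since the fit leaves 1 residual degree of freedom that is itself the disagreement between the lines.

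The last comparison set HCT116 against Caco-2, over both siRNAs. HCT116 had more caveolin, vimentin, LOXL2, smooth muscle alpha-actin, TPM2, MYL9 and CNN3 transcript, and Caco-2 had more FN1, TAGLN2, TPM1 and ACTB. ZEB1 also read higher in HCT116, at a level under that of HBB. In the limma fit with siRNA as a term, 9 of 27 members were higher in HCT116 and 4 were lower at an adjusted p under 0.05, against 19.4% and 19.8% of 11165 genes. Without the HCT116 BORIS siRNA array 14 were higher, and without the HCT116 control array 8 were lower. In either direction that is 48.1% of the members and 39.2% of all genes. With 2-fold required as well, 7 were higher and 3 lower, against 10.0% and 10.4% of all genes. Each line was represented by 2 arrays of different siRNA. The spread behind this test is therefore the disagreement between the line difference with BORIS siRNA and that with control siRNA. It may be technical, and nothing says that the cultures were independent.

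Of the transcription factors, ZEB1 stood at 5.99 and 5.98 in HCT116 with BORIS and control siRNA, and at 3.40 and 3.58 in Caco-2. The lines did not overlap, and since Caco-2 lay below background the difference is at least 1.04, or at least 2.06-fold (measured 2.49 ± 0.27, SE, adjusted p = 0.000834 by limma). This rests on 1 of the 7 ZEB1 probe sets, as the others were below background on all 4 arrays. The ZEB1 values in HCT116 also lay under those of HBB, at 6.38 to 6.64, so they do not by themselves show expression. SNAI1, a zinc finger factor of the same pathway, lay above background in HCT116 with control siRNA alone, at 5.50, and was not called between the lines. ZEB2 was dim in both lines, at 3.31 to 3.61.

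The mesenchymal and matrix genes split in opposite directions. VIM was higher in HCT116 by 1.15 ± 0.21 (SE, adjusted p = 0.00683), from the values given above, on both probe sets. Without the Caco-2 control array the difference was 0.77 and the adjusted p 0.0884, so this call rests on that array. LOXL2, below background in Caco-2, was higher in HCT116 by at least 2.98, or at least 7.86-fold (measured 3.81 ± 0.26, SE, adjusted p = 0.000116), and the HCT116 and Caco-2 arrays were far apart. FN1 went the other way, at 6.14 and 5.90 in HCT116 and at 9.01 and 9.13 in Caco-2, a difference of -3.05 ± 0.19 (SE, adjusted p = 7.92e-05). All 6 bright FN1 probe sets were lower in HCT116. The 5 others had 1 or both HCT116 arrays below background, and with those values raised to background they were lower by at least 3.29. SPARC, a matrix glycoprotein, stood at 6.14 and 6.06 in HCT116 and at 5.53 and 5.74 in Caco-2. LOX, a collagen-crosslinking enzyme like LOXL2, stood at 6.19 and 6.09 in HCT116 and at 5.77 and 6.10 in Caco-2. SPARC had 1 of 8 probe sets at or above an array median and LOX 1 of 6, at levels under those of HBB. SPARC, LOX and THBS1 were not called, with differences between -0.15 and 0.46, and the LOX levels of the lines overlapped.

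The actins and their regulators differed gene by gene within families. ACTA2 was higher in HCT116 by a measured 2.27 ± 0.23 (SE, adjusted p = 0.000673), with its Caco-2 control value below background. On the BORIS siRNA arrays alone, both above background, the difference was 2.03. This rests on 1 of the 3 ACTA2 probe sets, as the others were below background on all 4 arrays. ACTB was lower in HCT116 by a difference of -0.78 ± 0.12 (SE, adjusted p = 0.00353), with 13.36 and 13.38 in Caco-2, while ACTG1 differed by 0.08 and was not called. The line difference was -0.59 at the 3' control probe set of ACTB and -0.99 at the 5' one. The 3' minus 5' gap of ACTB was 1.47 and 1.34 in HCT116 and 0.97 and 1.05 in Caco-2, and that of GAPDH lay between -0.005 and 0.04. The part of this gap in the ACTB difference was not tested. TPM2 stood at 11.27 and 11.53 in HCT116 and at 9.83 and 9.87 in Caco-2, a difference of 1.55 ± 0.15 (SE, adjusted p = 0.000462). TPM1 ran opposite, at 8.14 and 8.39 in HCT116 and at 10.29 and 9.90 in Caco-2, a difference of -1.83 ± 0.21 (SE, adjusted p = 0.00109), and TPM4 was not called, at 0.21. TPM2 and TPM1 thus differed between the lines in opposite directions. TAGLN2, a transgelin of epithelial and blood cells, stood at 9.61 and 9.78 in HCT116 and at 12.04 and 11.95 in Caco-2, a difference of -2.30 ± 0.14 (SE, adjusted p = 8.16e-05), while its smooth muscle relative TAGLN was dim in both. CNN3, the acidic calponin, stood at 10.55 and 10.85 in HCT116 and at 9.88 and 9.67 in Caco-2, a difference of 0.92 (adjusted p = 0.0082). CALD1 was lower in HCT116 on 10 of 10 probe sets, by 0.32 to 1.21, but its brightest probe set was not called (adjusted p = 0.186), and as a mean over probe sets it was called at -0.83 (adjusted p = 0.00263).

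MYL9, which encodes a regulatory light chain of smooth muscle and non-muscle myosin, stood at 7.60 and 7.92 in HCT116 and at 6.18 and 6.25 in Caco-2, a difference of 1.54 ± 0.19 (SE, adjusted p = 0.00134). MYL6, MYH9 and MYH10 were not called. CAV1 was higher in HCT116 by 2.93 ± 0.21 (SE, adjusted p = 0.000132) and CAV2 by 0.95 ± 0.17 (SE, adjusted p = 0.00595), on every probe set. For CAV1 the difference between lines was 2.58 on the BORIS siRNA arrays and 3.29 on the control siRNA arrays. VCL, ACTN1 and ACTN4 were not called, with line differences of -0.03, -0.02 and 0.10. Of the 7 members lower at 1.5-fold in HCT116 with BORIS siRNA, LOXL2 alone was called between the lines, where 39.2% of all tested genes were called. A siRNA difference in 1 line alone enters the spread of this fit and makes a call less likely. The count therefore does not show that the 2 kinds of difference fall on separate genes.

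**Figure D5:**
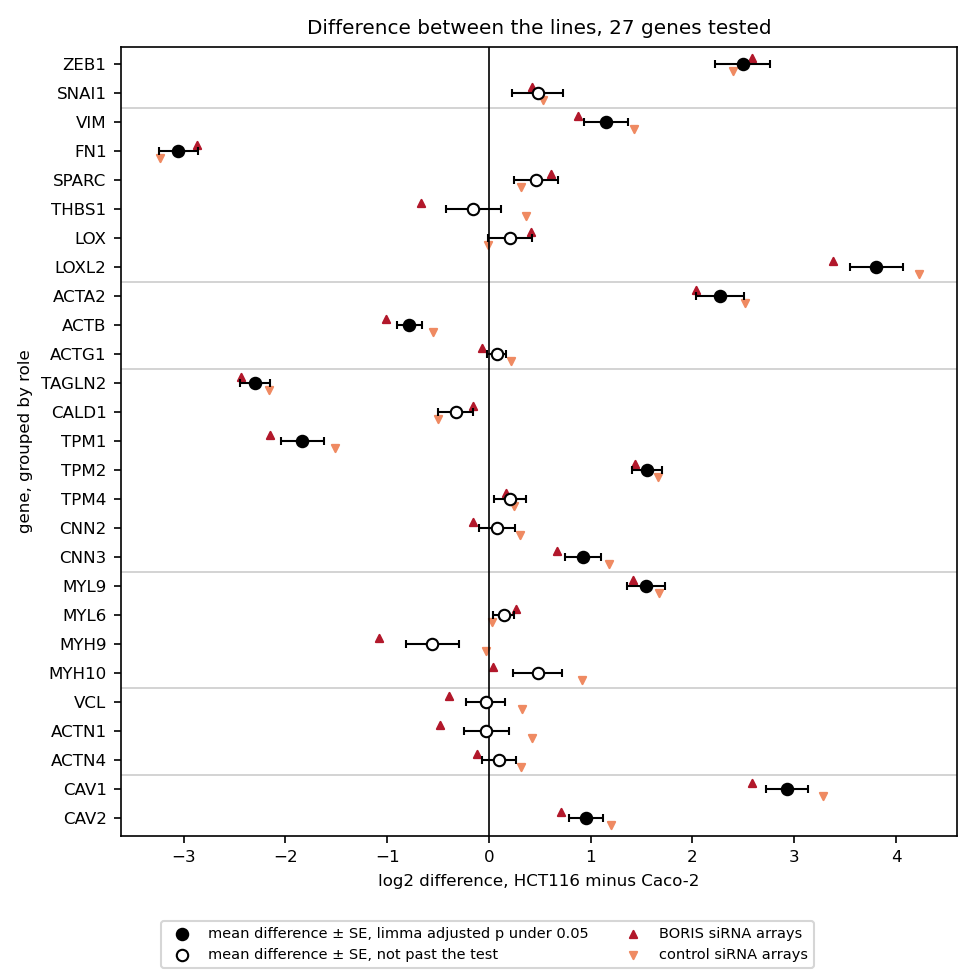
Log2 difference, HCT116 minus Caco-2 (horizontal axis), for the 27 genes tested. Circles are the mean over both siRNAs with its standard error, filled where the limma adjusted p is under 0.05, and triangles are the BORIS siRNA arrays and the control siRNA arrays taken alone; LOXL2 at a measured 3.81 and CAV1 at 2.93 lie farthest right, FN1 at -3.05 farthest left, and the triangles of VCL, ACTN1, ACTN4 and THBS1 lie on opposite sides of 0.

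The regulators and partners of these genes were described from 3 lists of 73 genes, of which 69 had a probe set. With BORIS siRNA in HCT116, 38 of 48 expressed genes had lower values (median difference -0.23), against 55.4% of all expressed genes, and 6 were lower and 0 higher at 1.5-fold, against 9.18% and 4.36%, so the share lower at 1.5-fold, 12.5%, lies near that of all genes. At 2-fold, where 1.45% of all genes were lower, 2 of the 48 were: AXL, a receptor tyrosine kinase of mesenchymal-like tumour cells, stood at 8.25 with BORIS siRNA and 9.41 with control siRNA, and FBLIM1, a filamin-binding adhesion protein, at 6.04 and 7.11. The pathway genes given next are below 2-fold and were picked with their values already seen. PXN, the scaffold paxillin, differed by -0.87 and ZYX, the tension-sensing protein zyxin, by -0.76. SRF itself differed by -0.14, MRTFA by -0.34 and MRTFB by -0.55. In Caco-2, 24 of 45 had lower values (median difference -0.01), against 49.4% of all expressed genes, and 2 were higher at 1.5-fold, or 4.44% against 2.78%, the small GTPase gene RHOB by 0.86 and the matrix gene TGFBI by 0.72.

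Between the lines, 11 of 50 tested pathway genes (22%) were higher in HCT116 by limma, against 19.4% of all genes, and 5 (10.0%) were lower, against 19.8%. Among SRF pathway genes the actin-severing gene CFL2 was higher by 1.41 and the LIM-domain gene FHL2 by 0.72, while the LIM-domain gene CSRP1 (-0.996), the formin gene DIAPH1 (-0.91) and the profilin gene PFN1 (-0.72) were lower. Among contractile partners, the capping gene TMOD1 was higher by at least 0.80, as it was below background in Caco-2 (measured 1.30), and the light chain gene MYL12A by 0.94, TMOD3 by 0.88, and the actin-binding gene LASP1 was lower, at -1.08. Among mesenchymal partners, AXL was higher by at least 3.89 and the secreted glycoprotein gene FSTL1 by at least 2.92, both below background in Caco-2 (measured 5.15 and 4.09). LOXL1, a relative of LOXL2, was higher by 2.57, with 1 Caco-2 array below background. TGFBI was below background in HCT116, at 3.71 and 4.26, and stood at 9.59 and 8.88 in Caco-2, so its difference was -4.10 or below (measured -5.25). These adjusted p-values lay between 4.07e-05 and 0.0226.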

How the data were processed

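Total RNA of 4 samples of HCT116 and Caco-2 cells was measured on 1 PrimeView array each. The authors deposited log2 expression values per probe set; the log2 unit follows from their range, and how the authors corrected, normalized and summarised them is not given in the sources used here. RNA was extracted with TRIzol and labelled by 3' in vitro transcription, per the labels' protocols. The table held 0 columns of other samples. Of 49395 probe sets, 44988 were paired with 1 gene symbol by the platform annotation, 1832 with several, 2473 with none and 102 were controls, and the brightest by mean stood for each gene. No scanner files were used here. Each group held 1 array, which limits the precision.

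Differences between siRNAs within a line were counted at 2-fold and 1.5-fold with no test. The line difference and the shared siRNA effect came from R 4.3.3 and its package limma 3.58.1, with line and siRNA as terms (lmFit, then eBayes with a trend, 1 residual and 5.49 prior degrees of freedom), with Benjamini-Hochberg adjustment over 11165 genes and a threshold of 0.05. Values below background gave bounds: the brighter value minus the background level. The fit was tested on simulated data. Values on every array are given for members past the limma test or at 1.5-fold in any siRNA comparison; other genes named are CTCFL, pathway genes at 2-fold between siRNAs and the up to 3 in each direction of a list that differed most between the lines among those called. PXN, ZYX, SRF, MRTFA, MRTFB, RHOB and MYH14 and the marker genes are named outside this rule. The members and lists were chosen with earlier results of these data known. Start-site windows came from RefSeq, GRCh38.p14, which held windows for 31 members. Alternatives were other filters, probe set choices and normalizations, 16 added on the linear scale, no siRNA term, no trend and each array left out, and each probe set as a feature, the last added after seeing the data.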

Additional observations from a re-analysis of the deposited data

Results flagged for a closer look

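MYH9 and THBS1 had siRNA differences of opposite direction in the lines. With HCT116 minus Caco-2, the difference between the siRNA differences was -1.05 for MYH9 and -1.04 for THBS1, and every bright probe set of both genes was lower with BORIS siRNA in HCT116 and higher in Caco-2. CAV2 showed the same opposition at a smaller size, -0.50, on 3 probe sets in each line, of which a pair agrees within 0.01 on all arrays and counts as 1 reading. These differences were not tested, since each group holds 1 array. The poly-A spike-in controls, which no comparison uses, differed by 0.87 between BORIS siRNA and control siRNA in HCT116, the BORIS siRNA array being brighter, and by -0.07 in Caco-2. The hybridisation controls, added after labelling, were higher by 0.34 in HCT116 and by 0.01 in Caco-2. Their part in the HCT116 differences was not tested.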

How the results depend on the processing

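No pairing of replicates was possible, because each group held 1 array and the labels give no replicate numbers. The terms of the fit do pair arrays. The shared siRNA effect sets the arrays of a line against each other, and the line difference sets arrays of the same siRNA against each other. In HCT116, 0 members were higher at 2-fold, and 1, TPM4, was by averaging all probe sets or without _x_at and _s_at probe sets; at 1.5-fold higher the 0 became 1 with either choice or quantile normalization and 2 with arrays centred on expressed genes. The 7 members lower at 1.5-fold became 4 with the mean of all probe sets and 6 to 8 otherwise. Without _x_at and _s_at probe sets FN1 moved to a measured -1.55 and VCL reversed to 0.23. The FN1 value with BORIS siRNA then lies below background, so FN1 is lower by at least 0.14. The VCL probe set that is left lies below background. In Caco-2, the 0 members higher at 2-fold became 1 with no filter or the filter at olfactory receptor background (ACTA2) and by averaging probe sets or dropping those of the _x_at and _s_at kinds (TPM4). Between the lines, leaving out 1 array gave 8 to 14 members higher and 4 to 8 lower: 14 higher without the HCT116 BORIS siRNA array and 8 lower without the HCT116 control array, so the 9 and 4 depend on those arrays, the lone array of a line being assumed to vary like the other line. Other alternatives gave 6 to 11 higher and 3 to 6 lower. The shared effect called 0 members under each of 10 alternatives. Members near background have bounds only, and the cause of each change not named here was not tested.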
